A study of Danio rerio with 6 samples.

Results

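The genes described here are 10 transcription factor genes that act in hemogenic endothelium and in hematopoietic stem cells: runx1, gata2b, gfi1aa, gfi1ab, gfi1b, myb, ikzf1, tal1, lmo2 and gata2a. They were picked by name from the 31701 genes of the deposited table. The list was selected on earlier results from the same 6 libraries, so the levels and differences below describe the genes and are no independent evidence of a direction. All 10 passed the filter on low values, a mean of 5 or more, as did 20900 genes in all, and none of them was at 0 in any library.

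RNA sequencing was performed on endothelial cells sorted from zebrafish of the AB strain at 48 hours post fertilization (hpf), with 2 libraries per group. In the overexpression group (OE), the stable line Tg(fli1a:tdTomato-2A-hhex)bns136 drives hhex together with tdTomato under the endothelial fli1a promoter, on a Tg(kdrl:EGFP)s843 background, and cells positive for both tdTomato and EGFP were sorted. The hhex mutants carry the s722 allele, an in-frame deletion in the homeodomain that leaves the transcript in place, and their siblings (hhex+/?) were chosen by the presence of parachordal lymphangioblasts and can carry a single mutant copy. Mutant and sibling cells were sorted for EGFP alone from Tg(kdrl:EGFP)s843 embryos, so in both comparisons with OE the transgene and the sorting gate cannot be told apart. The number of embryos behind a library, and whether the libraries came from separate clutches, is not given in the sources used here, so the errors measure only the spread between these libraries.

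The values are read numbers per gene divided by a size factor for each library. The libraries held an estimated 19651603 to 23615228 reads on genes, rebuilt from the steps between low values, which were least clear in mutant replicate 1. The hhex gene itself, a homeobox factor of the endothelial and blood lineages, stood at 764 and 925 in OE, at 613 and 1157 in mutants and at 204 and 279 in siblings. Its level was thus higher in OE than in siblings in both libraries, whereas in mutants it cannot check the loss of function. All 10 markers of a fixed endothelial list, among them kdrl and cdh5, were above 0 in every library. So were all markers of the muscle, neural and epidermis lists given below, so this is no check of the sort. All 10 endothelial markers were lowest in mutant replicate 1 and highest in OE replicate 1. Of the 10 regulators, 6 had their lowest value in OE replicate 1 (22.3% of all genes did). For the regulators and some of the gene lists, differences in mutants are also given without mutant replicate 1.

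Blood stem cells arise in the vertebrate embryo from hemogenic endothelium, a small group of endothelial cells in the floor of the dorsal aorta that round up, leave the vessel wall and turn on blood genes. In zebrafish, gata2b acts in these cells upstream of runx1, the factor required for the transition itself, and the repressors of the Gfi1 family shut down the endothelial program. Emerging cells switch on myb, which definitive blood stem and progenitor cells need, and ikzf1 (Ikaros), a factor of lymphoid and progenitor cells. By contrast, tal1 (Scl), lmo2 and gata2a act earlier and more broadly, in precursors of both endothelium and blood. In bulk RNA of sorted cells, fewer cells of a type and less RNA per cell cannot be told apart.

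The regulators differed in how far OE lay from the siblings. Of the factors of the hemogenic and stem cell program, runx1, gata2b, gfi1aa, gfi1b, myb and ikzf1 were low in both OE libraries, and their OE means were exceeded 4.93- to 13.5-fold by those of the siblings. The Gfi1 family member gfi1ab was not among them, with a log2 difference of -0.61 between OE and siblings. The factors shared with the rest of the endothelium (tal1, lmo2 and gata2a) had log2 differences between -0.50 and 0.61 from siblings in OE. In mutants the regulators had no common direction relative to siblings, and the mutant libraries lay far apart.

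**Figure D1:**
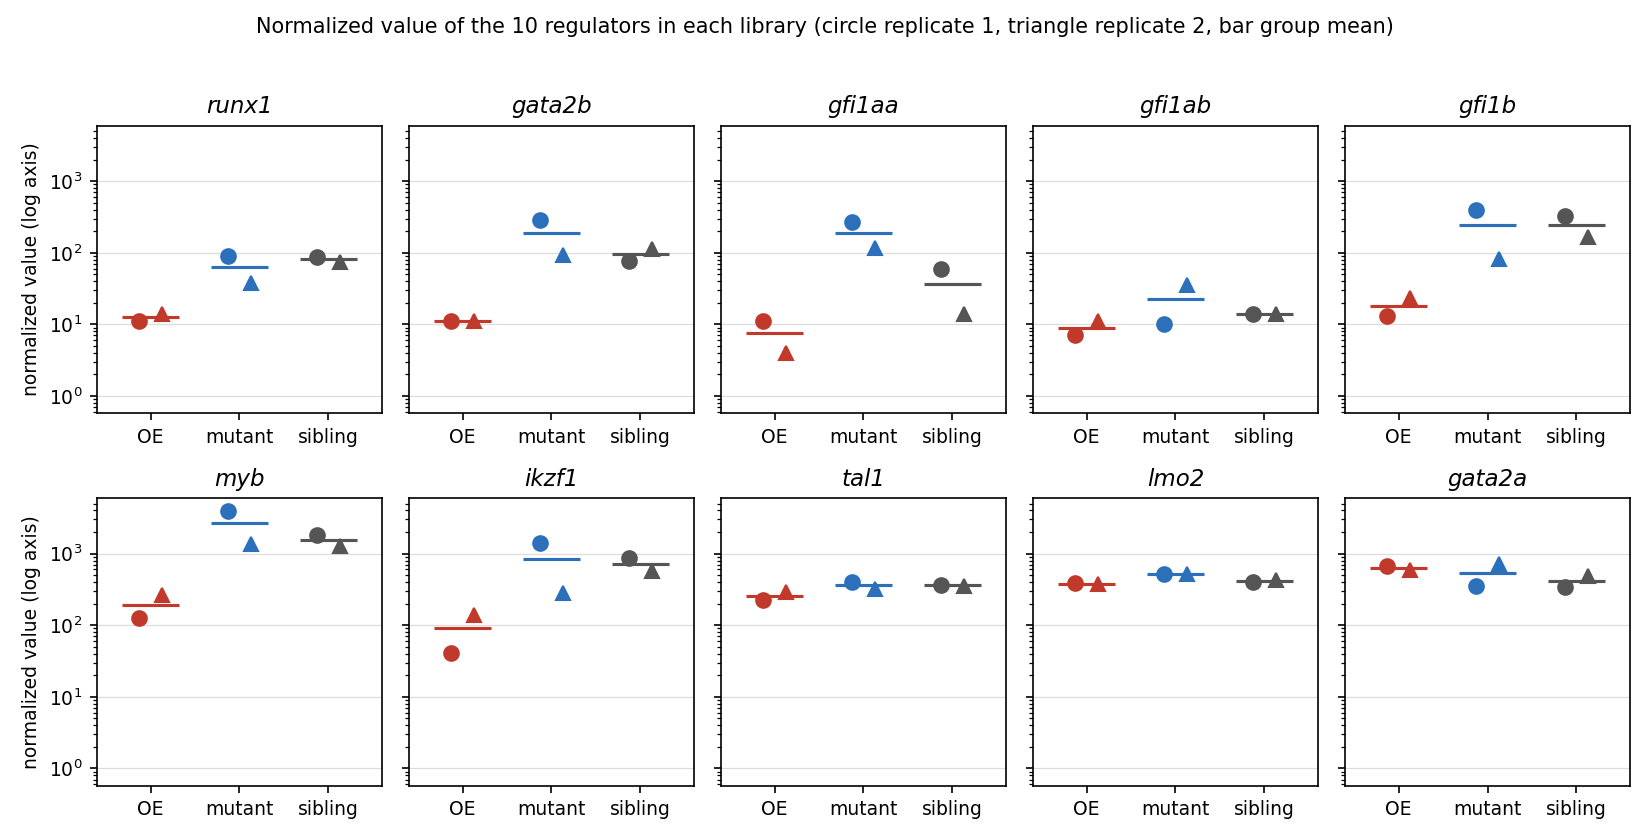
Normalized value of each of the 10 regulators on a log axis, in the 2 libraries of hhex overexpression (OE), mutants and siblings (circles replicate 1, triangles replicate 2, bars group means). In 8 of the 10 panels, all but those of gfi1ab and gata2a, both OE libraries sit below the other 4 (17.3% of all genes), by small steps for tal1 and for lmo2, whose values lie between 380 and 515.

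Of the hemogenic endothelium factors, runx1 (chromosome 1, 1241694 to 1253961 in GRCz10, minus strand) stood at 11 and 14 in OE, at 90 and 38 in mutants and at 87 and 75 in siblings. Both OE libraries lay below all others, and mutant replicate 2 lay between OE and siblings. The log2 difference of runx1 between OE and siblings was -2.61 (standard error 0.51), and only 1.03% of all genes tested had a lower one. Between OE and mutants it was -2.15 (standard error 0.51).

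The gene gata2b (chromosome 6, 40796479 to 40806264, plus strand) had 11 and 11 in OE, 289 and 94 in mutants and 76 and 114 in siblings. The OE libraries were alike, and the mutant libraries differed, with replicate 1 the highest of all 6. The log2 difference of gata2b was -2.97 (standard error 0.55) between OE and siblings, -3.79 (standard error 0.55) between OE and mutants and 0.82 (standard error 0.55) between mutants and siblings. Without mutant replicate 1, the difference between mutants and siblings was 0.01. Genes on the opposite strand overlap gata2b, zgc:172271 and si:ch211-157b11.6, both with values of at most 20. The strand setting of the counting is not given in the sources used here.

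The Gfi1 family encodes zinc finger repressors, of which gfi1aa and gfi1b take part in the loss of endothelial identity. The gene gfi1aa (chromosome 2, 10983145 to 11002050, plus strand) had 11 and 4 in OE, 266 and 117 in mutants and 60 and 14 in siblings. Here the 3 groups followed each other without overlap, OE lowest and mutants highest. The OE and sibling values are small, and the gap between these groups lies between 11 in OE replicate 1 and 14 in sibling replicate 2. Their exact 95% Poisson intervals, from 5.07 to 19.45 and from 8.04 to 23.7, overlap. That of the 4 in OE replicate 2 ran from 1.05 to 9.85. These intervals cover counting error only. The log2 difference of gfi1aa was -1.97 (standard error 0.79) between OE and siblings, where it depended on the sibling library, at -0.95 without sibling replicate 1 and -2.98 without sibling replicate 2.

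Its paralog gfi1ab (chromosome 6, 29013501 to 29016932, minus strand) had the fewest reads of the regulators, with 7 and 11 in OE, 10 and 35 in mutants and 14 and 14 in siblings. The counting intervals of the OE libraries reached 15.3 and 18.9 and those of the sibling libraries began at 8.02 and 8.04. A difference of gfi1ab was not detectable at this depth, with a log2 difference of -0.61 between OE and siblings and a 95% interval from -2.33 to 1.11.

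The third member of the family, gfi1b (chromosome 21, 17243516 to 17259903, minus strand), known from erythroid, megakaryocytic and stem cells, had 13 and 23 in OE, 400 and 81 in mutants and 321 and 165 in siblings. The OE libraries lay far below the rest. The log2 difference of gfi1b from siblings was -3.66 (standard error 0.72), lower than in any other of the regulators, and -3.31 (standard error 0.72) from mutants.

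The stem and progenitor factor myb (chromosome 23, 31888892 to 31903512, plus strand) stood at 127 and 262 in OE, at 3918 and 1362 in mutants and at 1836 and 1270 in siblings. Even the higher OE library had less than any library of the other groups, with log2 differences of -3.06 from siblings and -3.66 from mutants (standard error 0.52 for both). Its neighbor mtfr2 overlaps it on the opposite strand, with values between 36 and 80.

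For ikzf1 (chromosome 13, 15826890 to 15863480, minus strand) the values were 41 and 140 in OE, 1408 and 283 in mutants and 864 and 579 in siblings. All OE values were again the lowest, but the libraries of a group differed more than for myb. The log2 difference of ikzf1 from siblings was -3.20 (standard error 0.77), with -2.33 when OE replicate 1 was left out and -4.08 when OE replicate 2 was left out.

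The remaining 3 genes belong to the complex in which a Tal1 dimer, the bridging protein Lmo2 and a GATA factor bind DNA together. The values of tal1 (chromosome 22, 16509305 to 16519060, plus strand) were 225 and 288 in OE, 406 and 325 in mutants and 370 and 351 in siblings. Both OE libraries were below the others, by a small step, with a log2 difference of -0.50 (standard error 0.25) from siblings and a 95% interval from -1.07 to 0.07.

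The values of lmo2 (chromosome 18, 38307869 to 38315657, plus strand) were 384 and 380 in OE, 515 and 514 in mutants and 403 and 423 in siblings. Replicates of lmo2 differed by at most 20 units, the mutants were highest, and the log2 difference of OE from siblings was -0.11 (standard error 0.21), with a 95% interval from -0.59 to 0.36.

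The gene gata2a (chromosome 11, 3828494 to 3846289, minus strand), the second zebrafish counterpart of the mammalian Gata2 gene, had 678 and 586 in OE, 350 and 727 in mutants and 344 and 494 in siblings. It was the only one of the 10 with both OE libraries above both sibling libraries, with a log2 difference of 0.61 (standard error 0.36). That sign turned to -0.27 when the libraries were rescaled to the endothelial list, a scaling that also put the median of all genes at -0.85, so that gata2a stayed above that median. The paralogs therefore ran apart: gata2b amounted to 1.62% and 1.88% of the gata2a value in OE, to 82.6% and 12.9% in mutants and to 22.1% and 23.1% in siblings. These ratios compare libraries and not the abundance of the transcripts, whose lengths were not used here.

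Across all genes, the fit with limma on log2(value + 1) called 0 genes (0% of those tested) at an adjusted p of 0.05 in each of the 3 comparisons, with 3135, 711 and 3675 genes at an unadjusted p under 0.05 for OE against siblings, mutants against siblings and OE against mutants. None of the 10 regulators was therefore called. Between OE and siblings their adjusted p-values from limma lay between 0.191 and 0.81. When only the 4 OE and sibling libraries entered the fit, without the mutant libraries and their wider spread, limma called 841 genes, 449 of them lower in OE, which is 2.15% of all genes. Of the regulators, runx1, gata2b, gfi1b and myb were among these, with adjusted p-values from limma of 0.0208, 0.0164, 0.00597 and 0.00747. Over all 16 alternatives the adjusted p-values of these 4 genes from limma lay between 0.00168 and 0.816. The voom fit on rebuilt reads called 0 genes in each comparison.

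Counted by overlap, 9 of the 10 regulators had both OE libraries below both sibling libraries, a pattern that 27% of all genes showed, and 1 of 10, gata2a, had both above, as did 26.9% of all genes. A log2 difference of -2 or lower between OE and siblings was found for 5 of the 10, against 2.48% of all genes. The median over the 10 was -2.29, beside a median over all genes of 0.02. It was -2.39 with OE replicate 1 left out and -2.05 with OE replicate 2 left out. Leaving out any of the libraries turned no sign among the 10 in this comparison, which the lack of overlap fixed in advance. Since the list was selected on such results, nothing is read from these counts.

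Between OE and mutants, 8 of 10 regulators had both OE libraries below both mutant libraries (24.6% of all genes), none had both above (24.1% of all genes), and gfi1ab and gata2a overlapped. A log2 difference of -2 or lower was found for 6 of 10 (2.3% of all genes). The lowest was that of gfi1aa, at -4.52 (standard error 0.79). The median was -2.59, beside 0.02 over all genes, and adjusted p-values from limma lay between 0.102 and 0.668. Relative to the median of all genes, the median of the 10 was -2.61, against -1.86 with mutant replicate 1 left out and -3.47 with mutant replicate 2 left out. With 1 mutant library left, the error of these fits came from the OE and sibling libraries alone. Their calls are listed only with the dependence on the processing below, and nothing is read from them. With mutant replicate 1 left out, the log2 differences of runx1 and ikzf1 were -1.54 and -1.88, those of gata2b, gfi1b and myb were -2.98, -2.16 and -2.89, that of gfi1aa was -3.93, those of gfi1ab, tal1 and lmo2 were -1.88, -0.35 and -0.43, and the sign of gata2a turned from 0.32 to -0.21. Both comparisons with OE use the same OE libraries, so the likeness of their values is no second observation.

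**Figure D2:**
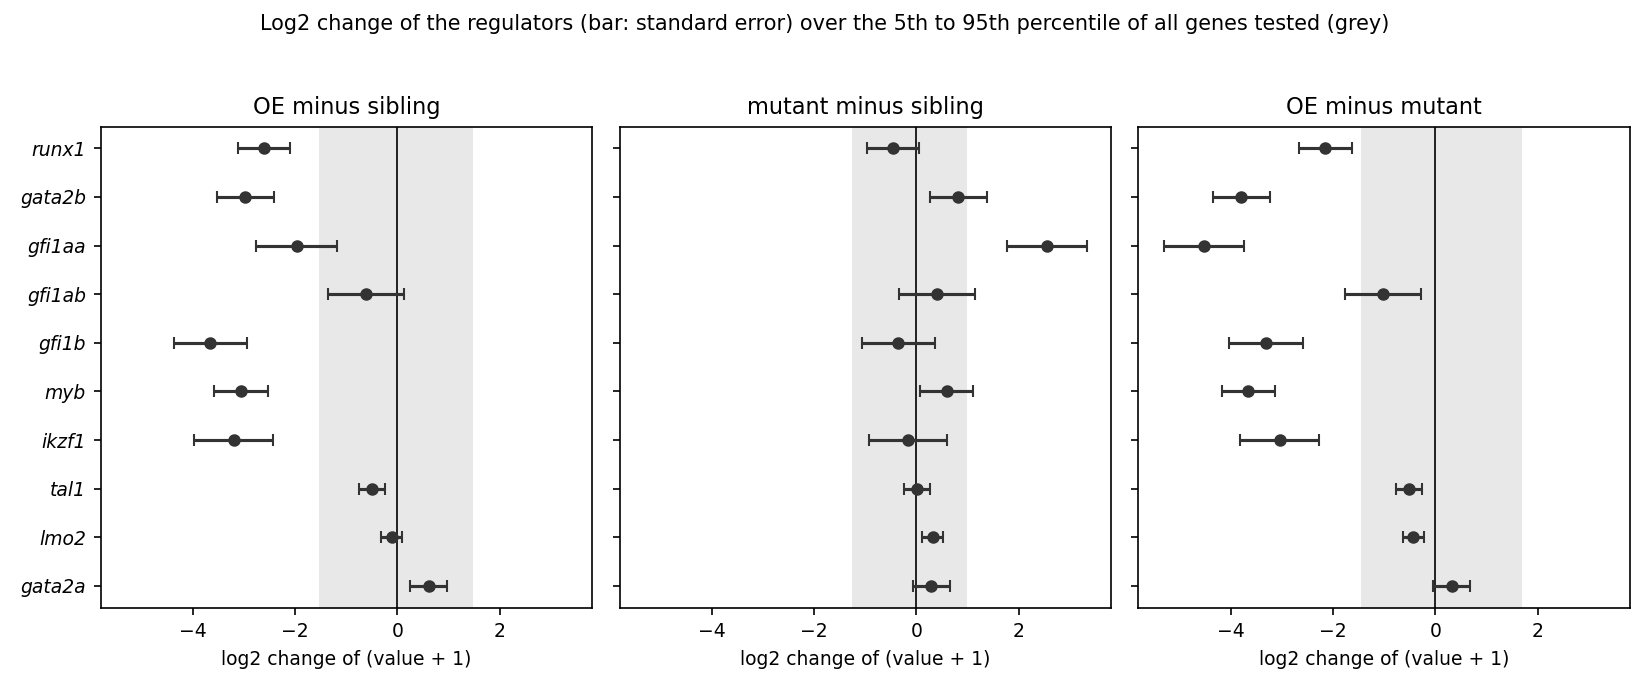
Log2 difference of each regulator on the log2(value + 1) scale (points, bars 1 standard error) for OE minus siblings, mutants minus siblings and OE minus mutants, over the range from the 5th to the 95th percentile of all 20900 genes tested (grey). For OE minus siblings, 6 of the points lie below the grey range (-1.51 to 1.46), and for mutants minus siblings all points but that of gfi1aa lie inside it.

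Between mutants and siblings the regulators showed no common direction. For 2 of 10, gfi1aa and lmo2, both mutant libraries lay above both sibling libraries (13.3% of all genes), for 0 of 10 they lay below (13.4% of all genes), and the other 8 overlapped. None had a log2 difference of -2 or lower (1.37% of all genes), and every adjusted p-value from limma was 1. The difference of gfi1aa was 2.55 (standard error 0.79), with 0.191% of all genes higher. With each library left out it lay between 1.54 and 3.56, and the lack of overlap fixed its sign in advance. That of lmo2 was 0.32 (standard error 0.21), between 0.28 and 0.35 with each library left out.

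The mutant libraries differed from each other in the other genes. Of the 10 regulators, 8 had their highest value of all in mutant replicate 1 (21% of all genes did), and gata2a and gfi1ab in mutant replicate 2. Without mutant replicate 1 the signs of myb (-0.16) and tal1 (-0.15) turned. Without mutant replicate 2 those of runx1 (0.15), gfi1ab (-0.45), gfi1b (0.79), ikzf1 (0.99) and gata2a (-0.24) turned. Signs also depended on the siblings. Those of gfi1b (0.13) and ikzf1 (0.13) turned without sibling replicate 1, and that of tal1 (-0.03) without sibling replicate 2. Other differences kept their sign without mutant replicate 1 but shifted, to -1.07 for runx1, -1.50 for gfi1b and -1.32 for ikzf1. That of gata2b fell to 0.01, and those of gfi1ab and gata2a rose to 1.26 and 0.82. The median of the 10 relative to all genes was 0.31, and -0.07 without mutant replicate 1.

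Levels of the endothelial markers also differed between the libraries. The 10 endothelial markers summed to 79218 and 60623 in OE, to 21152 and 63798 in mutants and to 30885 and 52054 in siblings. For 9 of 10, both OE libraries lay above both sibling libraries (26.9% of all genes). Mutant replicate 1, with the highest values of most regulators, had the lowest endothelial sum. Relative to the mean of the endothelial list, the log2 differences of the regulators between OE and siblings ran from -4.53 for gfi1b to -0.99 for lmo2 and -0.27 for gata2a, beside a median of all genes of -0.85. What part the endothelial content has in the low values of the regulators was not tested.

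Markers of mature blood cells were also measured. The 12 myeloid markers summed to 934 and 8827 in OE, to 9674 and 12651 in mutants and to 7237 and 7860 in siblings, with none at 0 in any library. Of the 12, 2 were higher (26.9% of all genes) and 3 lower (27% of all genes) in both OE libraries than in both sibling libraries. The OE libraries differed most in 2 granulocyte genes, lyz (lysozyme), with 41 and 2948 in OE, 2437 and 5421 in mutants and 1496 and 1951 in siblings, and mpx (myeloperoxidase), with 60 and 2395 in OE, 552 and 2941 in mutants and 403 and 963 in siblings. Every marker of the list was lower in OE replicate 1 than in OE replicate 2, but the markers differed in where OE lay relative to siblings. The leukocyte gene lcp1 had 598 and 2196 in OE, 5160 and 3143 in mutants and 4417 and 3923 in siblings, below the siblings in both OE libraries, and the macrophage gene mfap4 had 54 and 149 in OE, 18 and 3 in mutants and 12 and 4 in siblings, above them in both. The part of myeloid cells in the values of the regulators was not tested.

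The 12 erythroid markers, none at 0, summed to 4816 and 3857 in OE, to 7906 and 5998 in mutants and to 7656 and 4843 in siblings. For 6 of 12, both OE libraries lay below both sibling libraries (27% of all genes). The erythropoietin receptor gene epor had the lowest log2 difference of these, with 39 and 66 in OE, 484 and 140 in mutants and 272 and 173 in siblings (-2.07 between OE and siblings). The globin hbbe3 had 141 and 96 in OE and 119 and 95 in siblings.

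The 8 thrombocyte markers summed to 3527 and 3245 in OE, to 3938 and 4323 in mutants and to 4025 and 2813 in siblings. These sums were mostly those of thbs1b and f13a1b. Relative to the mean of the 6 libraries, the mean log2 level of the list was -1.25 and -0.99 in OE. It was 1.03 and 0.17 in mutants and 0.76 and 0.29 in siblings. Of the 8, 6 were lower in OE than in siblings without overlap (27% of all genes). Among these, itga2b and mpl also stand in the stem and progenitor list below and count among its lower genes. The 7 lymphoid markers, of which 4 had a mean of at least 5, summed to 21 and 148 in OE, to 1014 and 222 in mutants and to 777 and 322 in siblings. Of the 4, 3 were lower in OE than in siblings without overlap (27% of all genes). Their median log2 difference was -2.62, lower than that of the regulators. It was -1.66 with OE replicate 1 left out and -3.58 with OE replicate 2 left out. The recombinase gene rag1, under the filter, had 0 and 0 in OE, 5 and 0 in mutants and 9 and 8 in siblings. The part of these cell types in the values of gfi1b and ikzf1, which they also express, was not tested.

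**Figure D3:**
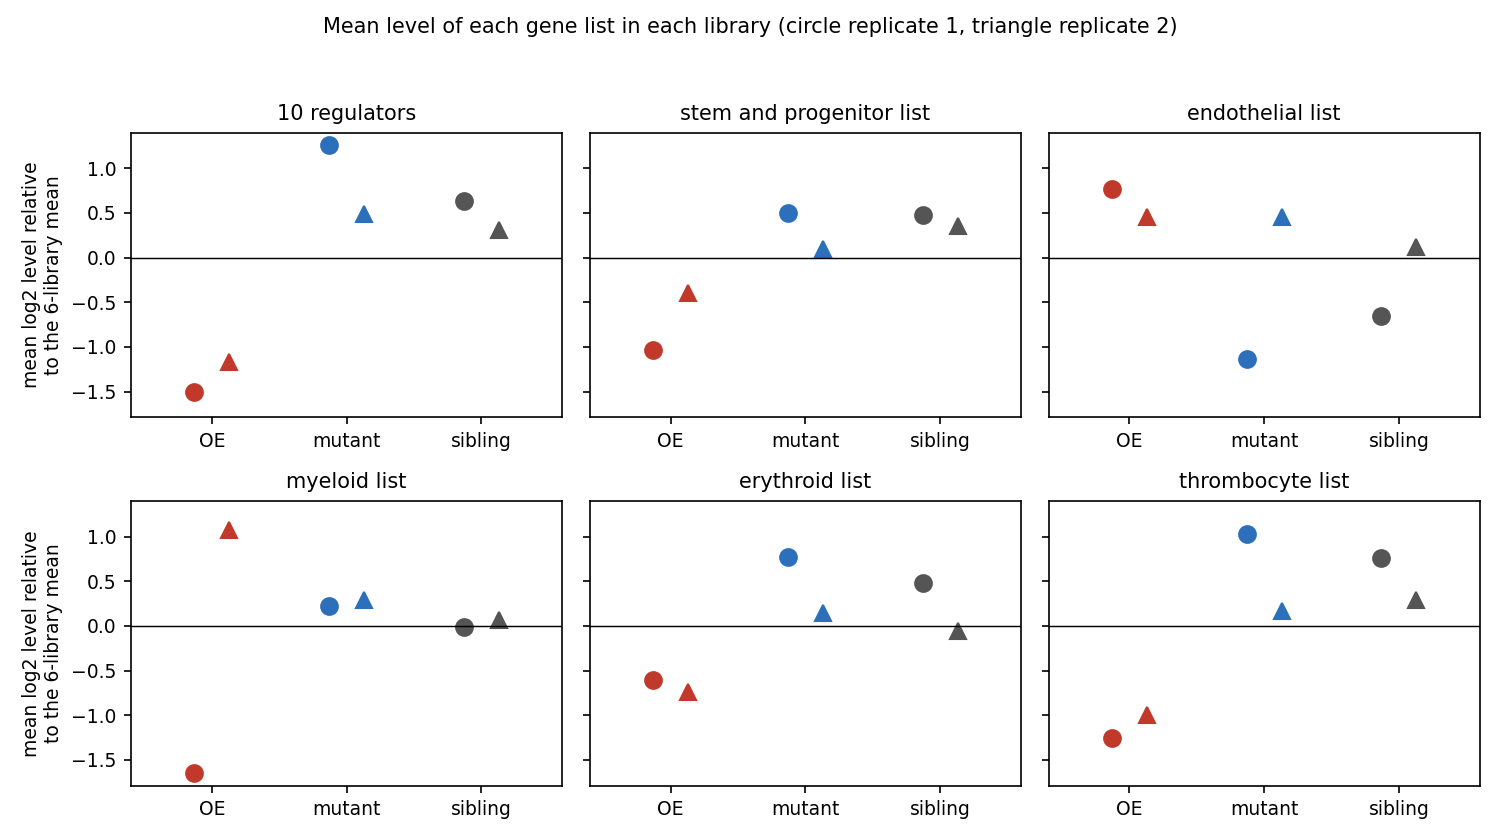
Mean log2 level of the 10 regulators and of 5 gene lists in each library, relative to the mean over the 6 libraries (circles replicate 1, triangles replicate 2). The regulators are lowest in both OE libraries (-1.51 and -1.17) and highest in mutant replicate 1 (1.26), where the endothelial list is lowest (-1.14), and the myeloid list separates the OE libraries (-1.64 and 1.08).

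Genes that mark stem and progenitor cells followed the regulators in part. Of 15 such genes, 10 were lower in both OE libraries than in both sibling libraries (27% of all genes). Another 4 were higher (26.9% of all genes), and the median log2 difference was -1.42. This median was -0.78 with OE replicate 1 left out and -1.47 with OE replicate 2 left out. The lowest was itga2b (CD41), a surface marker of thrombocytes and stem cells, with 0 and 2 in OE, 56 and 15 in mutants and 88 and 40 in siblings. The highest was mecom (Evi1), a stem cell factor that endothelium also expresses, with 759 and 712 in OE, 182 and 420 in mutants and 258 and 352 in siblings, a log2 difference of 1.28 (standard error 0.38). Thus the list held genes on either side. Against mutants, 9 of the 15 were lower in OE (24.6% of all genes) and 2 higher (24.1% of all genes) without overlap. The median of -1.34 was -0.67 with mutant replicate 1 left out. Between mutants and siblings all 15 overlapped, while 13.4% of all genes were lower and 13.3% higher without overlap. The median of the 15 was -0.08, and -0.41 with mutant replicate 1 left out.

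The pan-leukocyte gene ptprc (CD45) had 69 and 405 in OE, 922 and 496 in mutants and 988 and 743 in siblings. The de novo DNA methyltransferase gene dnmt3bb.1, which in zebrafish maintains cmyb expression in stem cells, had 468 and 631 in OE, 2271 and 1118 in mutants and 1490 and 1473 in siblings. For both genes the OE values lay below all others. By contrast, kita, lmo4a and hlfa of the same list were higher in both OE libraries than in both sibling libraries. Like cbfb and the single genes of the cell type lists, all these genes were named after their values were seen.

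Partners and cofactors of the regulators showed both directions. Of 17 listed, 14 were matched. Of these, 6 were higher (26.9% of all genes) and 5 lower (27% of all genes) in both OE libraries than in both sibling libraries. The median log2 difference was 0.11. The Runx1 paralog gene runx3 was lowest, with 43 and 221 in OE, 2952 and 317 in mutants and 1158 and 742 in siblings, a log2 difference of -3.23 (standard error 1.08). The gene of the common Runx partner, cbfb, had 354 and 673 in OE, 2116 and 1323 in mutants and 1705 and 1142 in siblings. At the other end stood etv2, the ETS factor that starts the endothelial program, with 1516 and 1287 in OE, 277 and 1079 in mutants and 532 and 677 in siblings, a log2 difference of 1.22 (standard error 0.54). Against mutants, 6 were higher (24.1% of all genes) and 5 lower (24.6% of all genes) in OE without overlap. The median was 0.09, or 0.00 with mutant replicate 1 left out. No partner was without overlap between mutants and siblings, where 13.4% of all genes were lower and 13.3% higher without overlap.

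Genes of arterial identity and Notch signaling, which precede hemogenic fate in the aorta, were mostly higher in OE than in siblings. Of 12 genes, 9 were higher (26.9% of all genes) and 1 lower (27% of all genes) in both OE libraries than in both sibling libraries. The median log2 difference was 0.60, close to that of the endothelial list, 0.89. After rescaling to the endothelial list the median of all genes moved to -0.85, so these medians depend on the scaling. Against mutants 10 of the 12 overlapped, with 1 higher (24.1% of all genes) and 1 lower (24.6% of all genes) in OE. The median of 0.33 turned to -0.16 with mutant replicate 1 left out. Between mutants and siblings, 3 of the 12 were higher (13.3% of all genes) and 0 lower (13.4% of all genes) without overlap. There the median of 0.14 was 0.79 with mutant replicate 1 left out. The Notch ligand gene dlb had 67 and 60 in OE, 23 and 4 in mutants and 52 and 13 in siblings. The receptor gene notch1b, the single lower one, had 9764 and 9151 in OE, 9489 and 14244 in mutants and 10105 and 12995 in siblings.

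**Figure D4:**
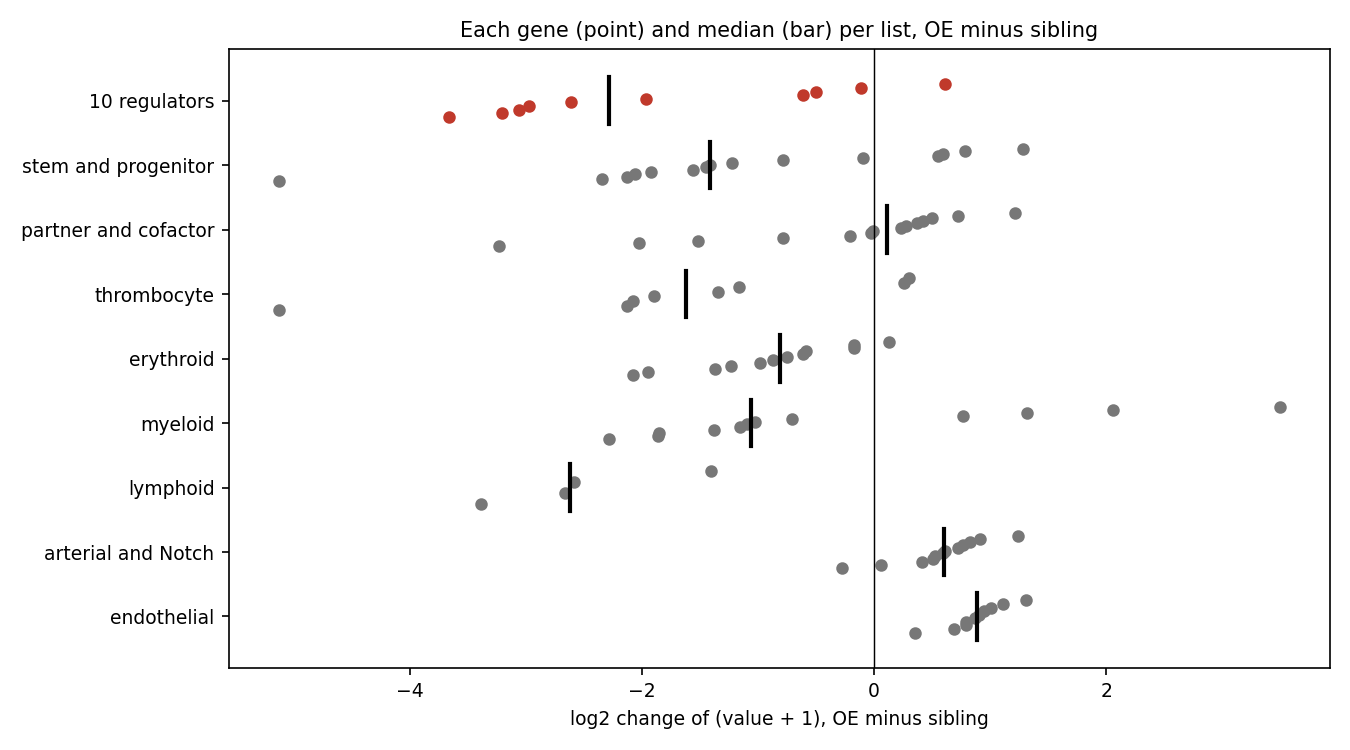
Log2 difference between OE and siblings on the log2(value + 1) scale for every tested gene (points) of the 10 regulators and 8 gene lists, with the median of each list (bars). The regulators have a median of -2.29, the stem and progenitor list one of -1.42 and the endothelial list one of 0.89. The medians of the blood cell lists are -2.62 (lymphoid, 4 genes), -1.62 (thrombocyte), -1.06 (myeloid) and -0.81 (erythroid). The lowest point, itga2b, stands in both the stem and progenitor and the thrombocyte list.

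For a few of the regulators, the genes most like them over the 6 libraries were sought among 10054 genes with a symbol and a mean of at least 50, by Pearson's r of log2(value + 1). Such a maximum over many genes is high in any case and is given as a description. For myb these were LPXN, trim25 and blf, with r between 0.995 and 0.997, and for ikzf1 gorab, tnfaip8l2b and cs, with r between 0.999 and 0.9997. The gene blf, a zinc finger factor of zebrafish blood, had 169 and 516 in OE, 6095 and 2117 in mutants and 2883 and 2059 in siblings. For lmo2 the nearest was fgfr2 (r = 0.992) and for gata2a ehd2b (r = 0.997), with 1128 and 735 in OE, 272 and 1354 in mutants and 239 and 549 in siblings. Chosen for their likeness, the nearest genes of gata2a shared its low values in mutant replicate 1 and sibling replicate 1. Those of myb shared its high value in mutant replicate 1.

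By the annotation deposited with the table, 7 of the 10 regulators carry the term hemopoiesis, 4 erythrocyte differentiation, 4 vasculature development, 4 neurogenesis and 0 hematopoietic stem cell differentiation.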

How the data were processed

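Per the paper's methods, the authors prepared stranded total RNA libraries, used Reaper for trimming and STAR (2.4.0a) for alignment to GRCz10, counted exonic reads with featureCounts (1.4.5-p1), leaving out multi-gene and multi-aligned reads, and normalized with DESeq2. Each deposited value is a signal: reads of a gene over the size factor of its library, which the authors rounded. They are not raw counts, so no count test was used. Reads per library, 19651603 to 23615228, and the exact Poisson intervals are estimates rebuilt from the steps between low values, as are the reads of the voom fit. The steps were weakest in mutant replicate 1 (r = 0.316).

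The 6 library columns were mapped by name. Genes averaging 5 or more were fitted as log2(value + 1) with limma (3.58.1, R 4.3.3), 3 groups in one fit with a mean trend and robust estimation, and p-values were adjusted by Benjamini-Hochberg over all 20900 genes. The members and lists were chosen with earlier results of these data known. All 10 regulators, hhex and, from the stem and progenitor, partner and arterial lists, the genes highest and lowest between OE and siblings among those with a mean of at least 20 were named, other genes after their values were seen, and 120 of 123 list genes were matched. Alternatives were filters, pseudocounts, scalings, voom on rebuilt reads, a replicate block, fewer libraries and each library left out. A crossed pairing of the OE libraries was added after the data were seen. No sequences are shown.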

Additional observations from a re-analysis of the deposited data

How the results depend on the processing

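With 2 libraries per group, the number of genes called depended on the libraries in the fit. Between OE and siblings, 0 genes were called in the 6-library fit with limma, and 4 without a filter on low values, 4 after quantile scaling, 97 after rescaling to the endothelial list and 841 with only the 4 libraries. With each library left out it was 0 to 838, with 793 without mutant replicate 1 and 838 without mutant replicate 2. Of the regulators 4 were called with the 4 libraries, 4 after rescaling (gata2b, gfi1b, myb and ikzf1) and 0 to 4 with each library left out. Between OE and mutants, 10 genes were called without a filter and 124 after rescaling, 5 regulators among them, and 0 to 2512 with each library left out, with 0 to 6 regulators, and the 2512 were reached without mutant replicate 2. The median of the regulators relative to all genes was then -3.47, in a range from -3.47 to -1.86. Between mutants and siblings, 0 to 13 genes were called with each library left out. A mean of at least 50 removed gfi1ab and left 9 regulators. The cause of the other shifts was not tested. Where a compared group was left with 1 library, that group added nothing to the error of the fit. The 2512 genes with 6 regulators, and the 13 genes between mutants and siblings, come from such fits. Nothing is read from the calls of these fits.

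The replicate numbers pair nothing by label. Deviations of same-numbered libraries correlated at -0.11 between OE and siblings, 0.49 between mutants and siblings and -0.20 between OE and mutants. A fit with the replicate block called 0 genes and 0 regulators in each comparison. A crossed pairing of the OE libraries was chosen after seeing the data. Between OE and siblings it called 689 of 20900 genes, 5 regulators among them. Between OE and mutants it called 1213 of 20900 genes with 6 regulators, and between mutants and siblings 20 with 0 regulators. The regulators were selected on these libraries, so nothing is read from these counts.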

Other observations

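Other genes of the lists also differed between the libraries. The coagulation factor gene f13a1b had 971 and 640 in OE and 1138 and 1784 in mutants, against 651 and 671 in siblings. The tal1 relative tal2, listed with neural genes, had 7 and 14 in OE, against 88 and 16 in mutants and 96 and 58 in siblings.

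Markers listed for tissues outside the vessels were present in every library. Muscle markers summed to 2590 and 6025 in OE, to 3242 and 2260 in mutants and to 10951 and 7082 in siblings. The sums of the neural and epidermis lists were mostly those of tubb2b and krt8, so mean log2 levels relative to the mean of the 6 libraries are given for these lists. Neural markers stood at 0.35 and -0.02 in OE, at 0.44 and -1.13 in mutants and at 0.48 and -0.13 in siblings, and epidermis markers at 0.77 and 1.06 in OE, at -0.14 and -1.22 in mutants and at 0.21 and -0.67 in siblings. The keratin gene krt8 had 28489 and 21760 in OE, 6596 and 21774 in mutants and 9403 and 16102 in siblings, an order across the mutant libraries opposite to that of krt4, with 3218 and 4080 in OE, 1909 and 365 in mutants and 2739 and 1182 in siblings. Like the 10 endothelial markers, krt8 was highest in OE replicate 1 and lowest in mutant replicate 1. It is thus no clear marker of epidermis in these libraries. Without overlap between OE and siblings, 0 muscle genes were higher and 5 of 6 lower, and 3 neural genes were higher and 2 of 8 lower. Of the 6 epidermis genes, 5 were higher, krt8 among them, and 0 lower. Of all genes, 26.9% were higher and 27% lower in this way.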
